A study of Rattus norvegicus with 12 samples.

Results

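The transcripts of 10 genes of the endoplasmic reticulum (ER) stress and amino acid response were followed in rat liver: Atf4, Ddit3, Atf3, Trib3, Asns, Xbp1, Hspa5, Hsp90b1, Dnajc3 and Herpud1. They were taken by gene symbol from 14217 genes measured on 12 Affymetrix rat expression arrays. All 10 were found, with 12 probe sets in all, and each gene was read from its brightest probe set, judged by the mean of all arrays. Trib3 alone had more than 1 probe set, and its other 2 served as a check. All values are log2 expression values, so that a difference of 1 is a 2-fold change.

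The study followed Long Evans Cinnamon (LEC/Crj) rats, a strain that lacks a working copy of the copper exporter Atp7b, stores copper in the liver and develops hepatitis and then liver tumors without any treatment. LEC liver was sampled in rats aged 4, 26 and 39 weeks, with 1 array each, and at 67 weeks as tumor (4 arrays) and as adjacent nontumor tissue (4 arrays). Liver of Long Evans Agouti (LEA) rats, the control strain, was sampled at 67 weeks on 1 array. All rats are labelled male and free of specific pathogens, and no group was given an agent. Every array carried pooled RNA: each tumor or nontumor array mixed 2 of 8 paired specimens, and the number of rats in the other pools is not given in the sources used here. The 4 replicates of a group are therefore pools, and the p-values measure the spread between such pools.

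The ER folds proteins made for secretion, a main task of hepatocytes. When unfolded proteins gather there, the sensors PERK, IRE1 and ATF6 start the unfolded protein response: PERK phosphorylates the translation factor eIF2alpha, which favours translation of the transcription factor ATF4; IRE1 splices Xbp1 mRNA into the form that encodes an active factor; and ATF6 is cut to release another. Lack of amino acids reaches ATF4 through the kinase GCN2, which acts on the same eIF2alpha, so that this shared branch is called the integrated stress response. ATF6 and XBP1 raise ER chaperones through promoter elements called ERSE and ERSE-II, and ATF4 acts through elements called CARE. Array values report transcript levels only, not splicing of Xbp1, phosphorylation of eIF2alpha or translation of Atf4.

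RefSeq promoter sequences (assembly GRCr8) matched 9 of the 10 genes, all but Atf3. The 250 bases before each transcription start were searched on both strands for ERSE (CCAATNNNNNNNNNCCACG), ERSE-II (ATTGG, any base, then CCACG), CARE (TGATGNAA) and the cyclic AMP response element (TGACGTCA). ERSE and ERSE-II share CCACG, and ATTGG is CCAAT read on the other strand. The printed 200 bases end at the base before the start, and capitals mark the matched letters. They are shown because Hspa5, Hsp90b1, Dnajc3 and Xbp1 share ERSE letters in this window, while Herpud1 holds ERSE-II and CARE letters. Trib3 has CARE letters, and Asns, the only called rise in tumor among the 10, has none of the 4 motifs there. Atf4 and Ddit3, not printed, have none of the 4 either. Hspa5 is at chr3:38452816-38453015, plus strand, Hsp90b1 at chr7:23012294-23012493, minus strand, Dnajc3 at chr15:102432467-102432666, plus strand, Xbp1 at chr14:84604423-84604622, plus strand, Herpud1 at chr19:10614708-10614907, minus strand, Trib3 at chr3:161275534-161275733, minus strand and Asns at chr4:36769416-36769615, minus strand.
Hspa5: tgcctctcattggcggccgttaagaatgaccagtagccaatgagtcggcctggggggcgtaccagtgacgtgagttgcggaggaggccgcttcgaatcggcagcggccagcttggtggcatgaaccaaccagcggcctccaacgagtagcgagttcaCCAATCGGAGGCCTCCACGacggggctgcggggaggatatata
Hsp90b1: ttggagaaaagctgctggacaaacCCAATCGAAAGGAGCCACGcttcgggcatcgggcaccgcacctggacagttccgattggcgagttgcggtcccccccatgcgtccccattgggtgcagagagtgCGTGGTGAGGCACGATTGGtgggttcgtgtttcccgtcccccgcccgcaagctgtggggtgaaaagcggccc
Dnajc3: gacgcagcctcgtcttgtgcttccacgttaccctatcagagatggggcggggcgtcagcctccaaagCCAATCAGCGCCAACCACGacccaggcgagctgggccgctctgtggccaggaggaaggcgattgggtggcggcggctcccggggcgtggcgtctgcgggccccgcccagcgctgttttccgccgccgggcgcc
Xbp1: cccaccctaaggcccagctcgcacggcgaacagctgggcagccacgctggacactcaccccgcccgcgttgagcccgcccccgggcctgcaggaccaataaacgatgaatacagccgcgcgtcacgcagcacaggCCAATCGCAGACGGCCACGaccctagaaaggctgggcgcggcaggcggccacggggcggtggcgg
Herpud1: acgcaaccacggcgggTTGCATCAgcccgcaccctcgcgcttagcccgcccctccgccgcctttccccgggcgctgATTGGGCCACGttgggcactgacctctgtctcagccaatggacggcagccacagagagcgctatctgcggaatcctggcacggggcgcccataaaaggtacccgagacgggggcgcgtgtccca
Trib3: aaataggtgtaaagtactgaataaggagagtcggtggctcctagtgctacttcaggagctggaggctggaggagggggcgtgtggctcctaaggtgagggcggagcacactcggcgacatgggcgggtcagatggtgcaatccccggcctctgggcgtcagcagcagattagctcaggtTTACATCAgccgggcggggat
Asns: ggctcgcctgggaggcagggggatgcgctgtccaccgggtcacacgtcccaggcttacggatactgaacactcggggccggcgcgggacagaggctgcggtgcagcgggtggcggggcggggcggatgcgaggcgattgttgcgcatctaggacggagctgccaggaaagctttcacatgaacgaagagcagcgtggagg

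ERSE letters were found in Hspa5 (from -43 to -25, counted from the first base before the start as -1), Xbp1 (-65 to -47), Dnajc3 (-133 to -115) and, at 2 places, Hsp90b1 (-176 to -158, and -72 to -54 on the opposite strand). Of 33469 promoter windows of the same length in the table, 22 held an ERSE match, which is 0.0657%. Herpud1 held ERSE-II (-124 to -114), found in 14 windows (0.0418%), and CARE on the opposite strand (-184 to -177). Trib3 held CARE on the opposite strand (-21 to -14), a motif found in 3.4% of windows. The cyclic AMP response element, present in 1.59% of windows, was in none of the 9, and Atf4, Ddit3 and Asns held none of the 4 motifs. A match describes letters and not a bound site, and a window without one says only that these letters are absent from it.

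**Figure D1:**
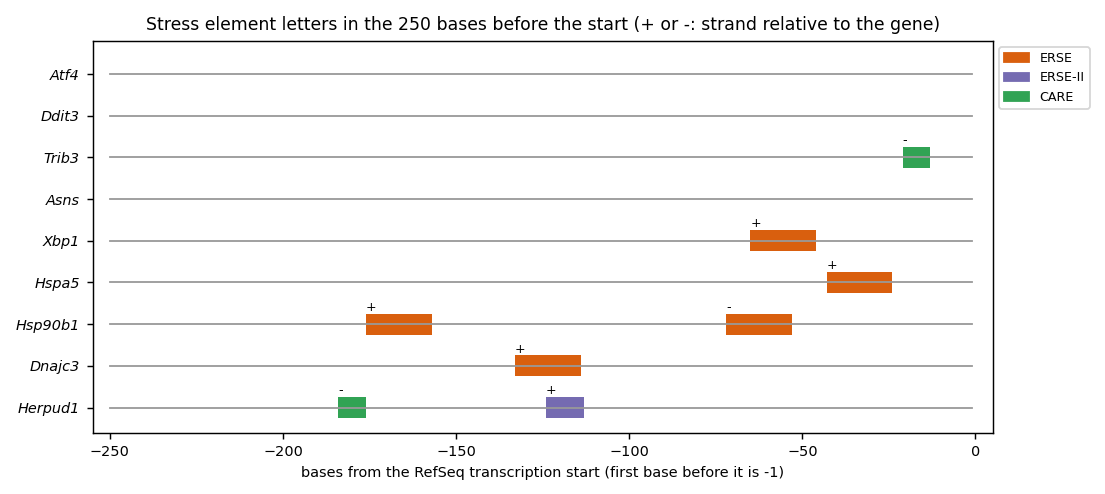
Matches to the ERSE, ERSE-II and CARE letters in the 250 bases before the RefSeq start of 9 genes; the horizontal axis is the distance from the start in bases and the sign above each bar is the strand relative to the gene. Hspa5, Hsp90b1, Dnajc3 and Xbp1 hold ERSE, Herpud1 holds ERSE-II and CARE, Trib3 holds CARE, and Atf4, Ddit3 and Asns hold none of the 4 motifs searched.

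The labels were checked before the comparisons. Xist, which coats and silences an X chromosome in cells of females, lay between 11.36 and 13.12 on 10 arrays and at 5.27 and 5.67 on those labelled LEC 26 and 39 weeks, while the Y-linked Eif2s3y was at 8.90 and 8.18 on these 2 and between 3.65 and 3.81 on the others. The 10 arrays with high Xist did not match the label male, and any comparison of these with 26 or 39 weeks also crosses this difference. Hepatocyte markers (10 measured) had a summed level, as log2 of the sum, between 16.90 and 17.09 on the nontumor arrays and of 16.25, 15.55, 16.71 and 14.31 on tumor arrays 1 to 4, and none of the 10 was at background on every array. Bile duct markers summed to 10.80 to 12.43 in nontumor and 14.89 to 15.12 in tumor, matrix and stellate markers to 12.07 to 12.54 and 14.42 to 15.10, and B and plasma cell markers to 11.99 to 12.37 and 13.28 to 13.58. Jchain was the brightest of these 8 B and plasma cell markers in tumor (mean 12.92, and 10.67 in nontumor). Of the 8, 4 were called higher in tumor and 4 were not called. The main probe sets of all 10 genes exceeded the highest of 15 bacterial control probe sets with no added target on every array, where those controls peaked between 5.52 and 6.16.

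Tumor was compared with adjacent nontumor LEC liver at 67 weeks. Asns, the enzyme that makes asparagine from aspartate and glutamine, rose 3.73-fold in tumor, while Trib3, a pseudokinase induced by ATF4, fell 2.77-fold and Dnajc3, a cochaperone also called P58IPK that inhibits PERK, fell 3.05-fold. The other 7 genes did not pass the test (limma, Benjamini-Hochberg adjusted p under 0.05 over all 31042 probe sets). Over all genes 38.8% were called higher and 29.2% lower in tumor, so 1 of 10 higher and 2 of 10 lower were smaller shares than the background. The median difference was 0.09 over the 10 genes and 0.07 over all 14217.

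Asns read 6.21, 7.18, 6.91 and 6.97 on nontumor arrays 1 to 4 and 8.58, 8.48, 9.19 and 8.62 on tumor arrays 1 to 4. The groups did not overlap: the lowest tumor array stood 1.30 above the highest nontumor array. The means were 6.82 ± 0.42 and 8.72 ± 0.32 (SD, n = 4 each), a difference of 1.90 ± 0.23 (SE; 95% interval 1.39 to 2.41; limma adjusted p = 1.37e-04). Nontumor array 1, the lowest, lay close to its highest bacterial control (6.01).

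Trib3 read 8.68, 8.99, 8.78 and 9.84 on the nontumor arrays and 7.64, 7.46, 7.96 and 7.34 on the tumor arrays. Again no tumor array reached the nontumor range, although nontumor array 4 stood apart above its group. The means were 9.07 ± 0.53 and 7.60 ± 0.27 (SD, n = 4 each), and the difference was -1.47 ± 0.25 (SE; 95% interval -2.04 to -0.90; limma adjusted p = 0.00102). Its other 2 probe sets gave -1.12 ± 0.26 (limma adjusted p = 0.00497) and -1.87 ± 0.40 (limma adjusted p = 0.00336), each also without overlap between the groups.

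Dnajc3 read 11.42, 11.35, 11.07 and 11.16 on the nontumor arrays and 9.70, 9.41, 10.11 and 9.34 on the tumor arrays. All 4 tumor arrays lay below each of the other 8 arrays of the series, which spanned 11.07 to 11.44. The nontumor mean was 11.25 ± 0.17 and the tumor mean 9.64 ± 0.35 (SD, n = 4 each), a difference of -1.61 ± 0.17 (SE; 95% interval -1.996 to -1.22; limma adjusted p = 7.12e-05).

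The tumor arrays kept the same order for Dnajc3, for Trib3 and for the hepatocyte marker level: array 3 highest, then 1, then 2, then 4. Hspa5, not called between tumor and nontumor, had this order too (12.47, 12.41, 12.40 and 12.33), and how many of all genes share it was not counted. Asns did not follow it, with tumor array 3 highest and array 2 lowest. On the nontumor arrays Trib3 was highest on array 4 (9.84), where the marker level was lowest (16.90). It was lowest on nontumor array 1 (8.68), where the marker level was highest (17.09). In bulk tissue, fewer cells of a type and less RNA per cell cannot be told apart, and the part of cell makeup in these differences was not tested. Of the hepatocyte markers 7 of 10 were called lower and none higher in tumor (median -2.01), of the bile duct markers 7 of 7 higher (median 3.49) and of the matrix and stellate markers 9 of 10 higher (median 2.25).

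**Figure D2:**
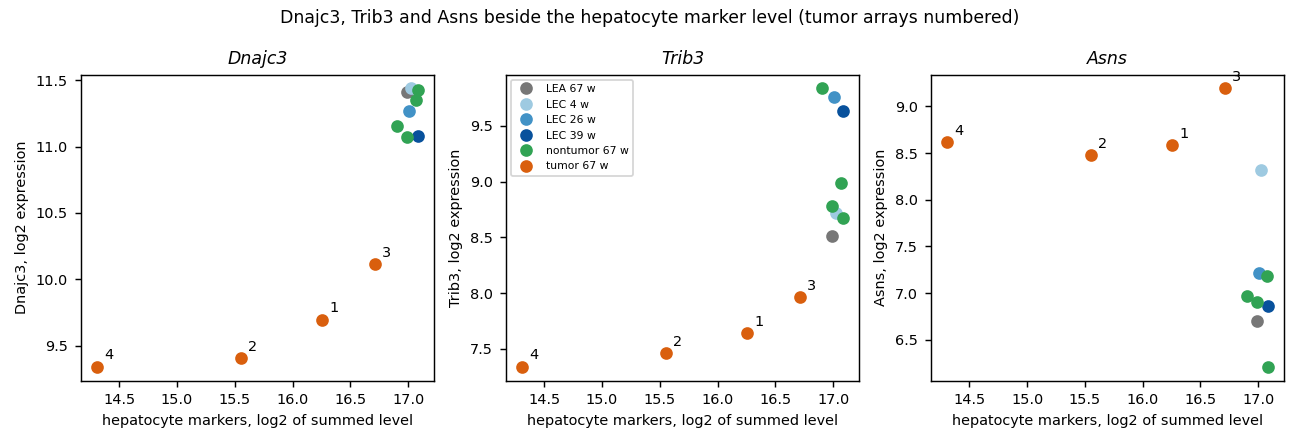
Log2 expression of Dnajc3, Trib3 and Asns (vertical axes) against the log2 of the summed level of 10 hepatocyte markers (horizontal axes), with 1 point per array, colours for the groups and numbers for the tumor arrays. The nontumor arrays lie between 16.90 and 17.09 on the marker axis and tumor array 4 at 14.31; Dnajc3 and Trib3 have the order 3, 1, 2, 4 among tumor arrays, and Asns does not.

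The transcription factors among the 10 genes, Atf4, Ddit3, Xbp1 and Atf3, showed no called difference between tumor and nontumor. Atf4, which encodes the factor at the centre of the amino acid branch, read 11.33, 11.33, 11.03 and 11.17 in nontumor and 11.31, 11.26, 11.53 and 11.26 in tumor. The groups overlapped, and the difference of 0.12 ± 0.10 (SE; 95% interval -0.10 to 0.35) left no room within the interval for a 2-fold change (limma adjusted p = 0.302). Ddit3 encodes CHOP, a factor of the late, death-promoting phase. It read 8.44, 8.09, 8.27 and 8.02 in nontumor and 8.26, 8.20, 8.94 and 8.57 in tumor, with overlapping groups and a difference of 0.29 ± 0.17 (SE; limma adjusted p = 0.163). Xbp1 read 12.02, 11.94, 11.76 and 12.28 in nontumor and 12.29, 12.09, 12.21 and 12.29 in tumor, a difference of 0.21 ± 0.11 (SE; limma adjusted p = 0.126). Without nontumor array 4, its highest nontumor value, Xbp1 became a second called rise among the 10 (0.31, limma adjusted p = 0.0215).

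Atf3, an early stress factor of the same bZIP family, varied most within the groups. It read 10.04, 8.57, 9.20 and 8.21 on the nontumor arrays and 9.20, 9.12, 9.96 and 9.14 on the tumor arrays. Nontumor array 1 exceeded every tumor array, and 3 tumor arrays lay within 0.081 of each other. The means of 9.01 ± 0.80 and 9.35 ± 0.41 (SD, n = 4 each) differed by 0.35 ± 0.37 (SE; 95% interval -0.50 to 1.20; limma adjusted p = 0.434).

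Among the chaperones, Hspa5, the abundant ER Hsp70 also called BiP, read 12.68, 12.70, 12.48 and 12.27 in nontumor and 12.41, 12.40, 12.47 and 12.33 in tumor. The tumor values lay inside the nontumor range, and the difference was -0.13 ± 0.10 (SE; 95% interval -0.36 to 0.11; limma adjusted p = 0.30). When the arrays were quantile normalized again, Hspa5 was called lower (-0.21, limma adjusted p = 0.0189), so that its call depended on the scaling. Hsp90b1, the ER Hsp90 also called GRP94, was the steadiest of the 10, with a range of 0.35 over the 12 arrays. It differed between tumor and nontumor by 0.05 ± 0.09 (SE; 95% interval -0.15 to 0.25; limma adjusted p = 0.637), a sign that turned to -0.04 after repeated quantile normalization. Herpud1, a membrane protein that helps send misfolded proteins to degradation, read 11.50, 10.59, 10.78 and 11.26 in nontumor and 11.005, 10.46, 10.93 and 10.81 in tumor. These groups overlapped, and the difference was -0.23 ± 0.21 (SE; limma adjusted p = 0.348).

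Genes with the same promoter letters had different values in tumor. Of the 4 genes with ERSE letters, Dnajc3 was called lower and Hspa5, Hsp90b1 and Xbp1 were not called. Of 13 other measured genes with ERSE letters, 3 were called higher (Ankmy2, 1.58 ± 0.12, SE; Hnrnpa3, 1.15 ± 0.09; Ppm1l, 0.60 ± 0.12) and 2 lower (Ero1b, an ER oxidase, -1.96 ± 0.22; Calr, the chaperone calreticulin, -0.18 ± 0.07), and 8 were not called. Of 9 other measured genes with ERSE-II letters, 3 were called higher, 3 lower and 3 not, and Herpud1 was not called. Over all genes 38.8% were called higher and 29.2% lower, and these counts were not tested against those shares. Asns and Trib3, both known targets of ATF4, moved in opposite directions.

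**Figure D3:**
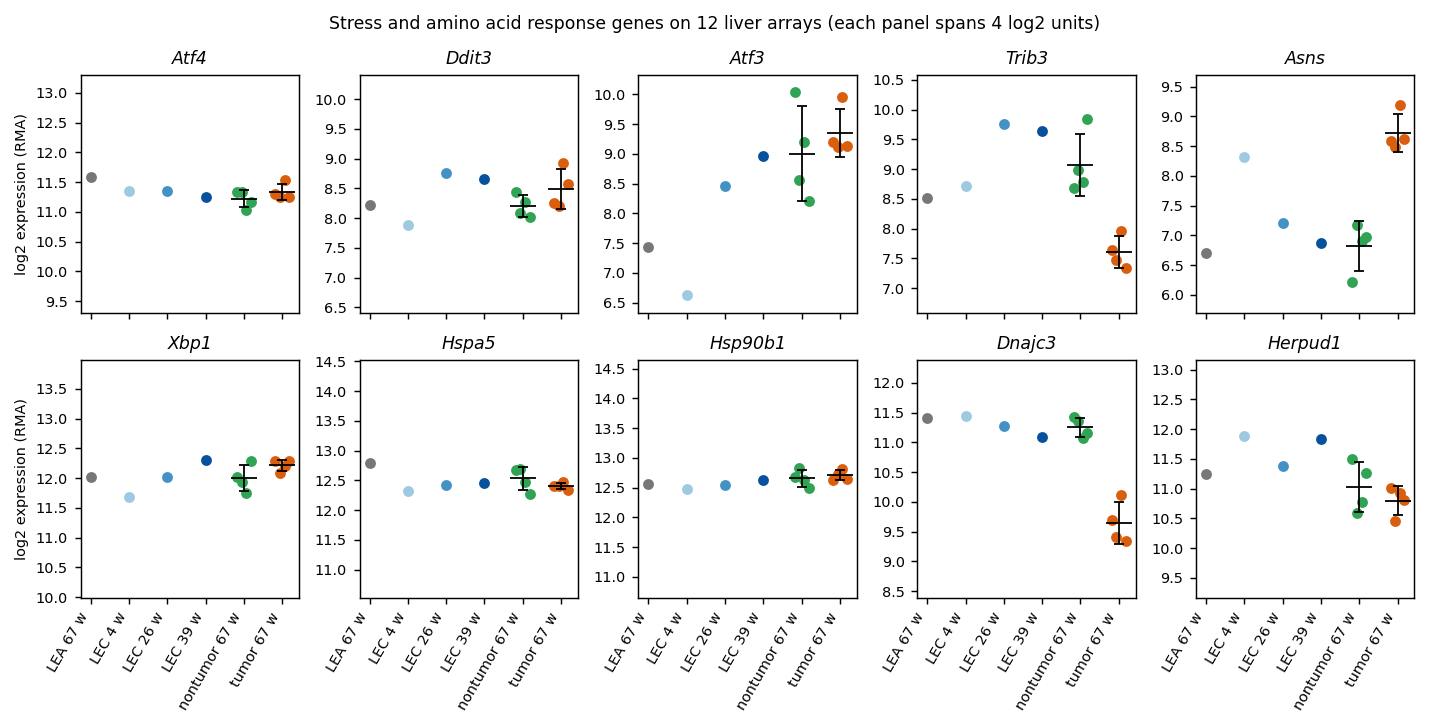
Log2 expression (vertical axes, each spanning 4 units) of the 10 genes on the 12 arrays, with 1 point per array, grouped by strain, age and tissue; bars give the mean and SD of the 4 nontumor and 4 tumor arrays. Tumor arrays are apart from nontumor arrays for Asns (above), Trib3 and Dnajc3 (below) and overlap them for the other 7 genes.

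Nontumor LEC liver was next compared with the LEA control of the same age, which is 1 array; a lone array was assumed here and in the comparisons with 4, 26 and 39 weeks to vary like the replicated groups. None of the 10 genes was called in nontumor against LEA, where 0.232% of all genes were called higher and 0.331% lower, and 2 of the 10, and 12.4% of all genes, had an unadjusted p under 0.05. The largest difference was that of Atf3, which read 7.44 on the LEA array, below all 4 nontumor arrays (8.21 to 10.04). The difference was 1.56 ± 0.59 (SE; 95% interval 0.22 to 2.91; limma adjusted p = 0.339). Atf4 read 11.58 on the LEA array, above every other array, with a difference of -0.36 ± 0.16 (SE; limma adjusted p = 0.398). Asns (6.71), Ddit3 (8.22), Xbp1 (12.03), Hsp90b1 (12.56), Dnajc3 (11.42) and Herpud1 (11.25) on the LEA array lay inside the nontumor range; Trib3 (8.52) lay below it, and Hspa5 (12.79) above it.

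Against LEC liver at 4 weeks, again none of the 10 was called, with 0.232% of all genes called higher in nontumor and 0.232% lower, while 3 of the 10, and 13.5% of all genes, had an unadjusted p under 0.05. Those 3 were Atf3, Asns and Herpud1, chosen here for that p. Atf3 read 6.63 at 4 weeks, its lowest value in the series, and nontumor liver differed from it by 2.38 ± 0.59 (SE; 95% interval 1.03 to 3.72; limma adjusted p = 0.143). Asns read 8.32 at 4 weeks, above every nontumor array and just below the lowest tumor array at 8.48, and nontumor differed by -1.50 ± 0.36 (SE; 95% interval -2.31 to -0.69; limma adjusted p = 0.134). Herpud1 read 11.88 at 4 weeks, its highest value, with a difference of -0.85 ± 0.33 (SE; limma adjusted p = 0.315).

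Against 26 weeks none of the 10 was called, at a background of 0.0422% higher and 0.197% lower, and none had an unadjusted p under 0.05, as 11.8% of all genes did. Against 39 weeks none was called, at 0.0141% higher and 0.141% lower, and 1 had an unadjusted p under 0.05, beside 10.4% of all genes. These 2 arrays are the ones that differ from the rest by Xist and Eif2s3y, and the part of that difference was not tested. Ddit3 read 8.77 at 26 and 8.67 at 39 weeks, above all nontumor arrays (8.02 to 8.44), and nontumor differed by -0.56 ± 0.27 (SE; limma adjusted p = 0.484) and -0.46 ± 0.27 (SE; limma adjusted p = 0.624). Trib3 read 9.76 and 9.63, values reached in the rest of the series by nontumor array 4 only (9.84). Herpud1 read 11.84 at 39 weeks, above the nontumor arrays, with a difference of -0.80 ± 0.33 (SE; limma adjusted p = 0.474).

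**Figure D4:**
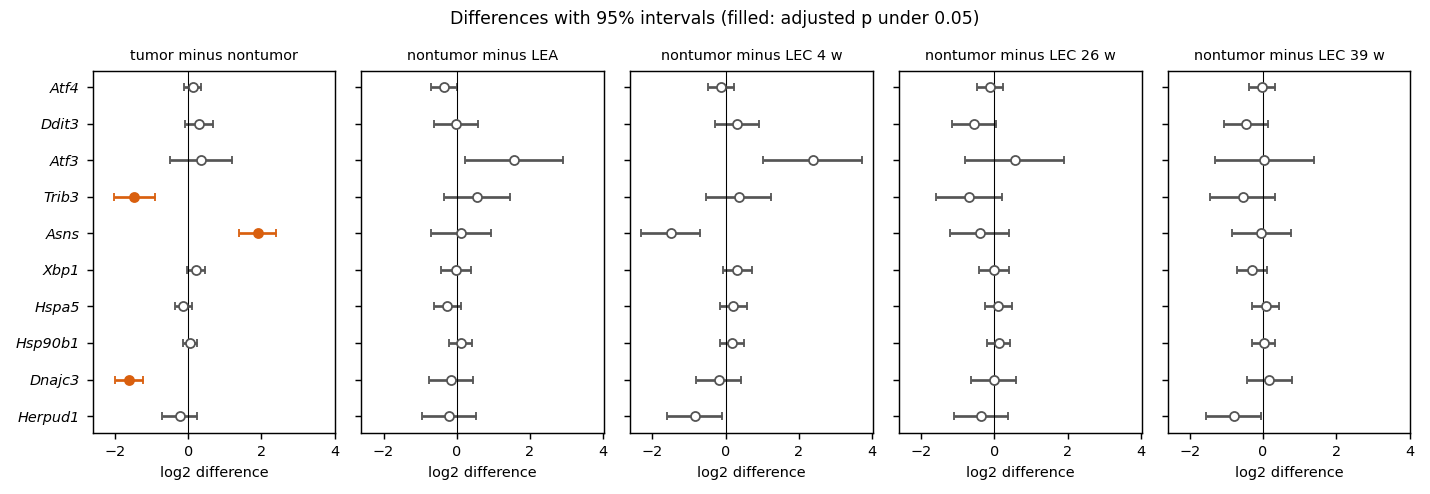
Log2 differences (horizontal axes) with 95% intervals for the 10 genes in 5 comparisons, each named as first minus second group; filled points passed an adjusted p of 0.05. Asns, Trib3 and Dnajc3 are filled in tumor minus nontumor, no point is filled in the other 4 panels, and the intervals against lone arrays are wider.

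The age pools, each 1 array, were compared with each other by size only, with 2-fold as the mark and with no test run. From 4 to 26 weeks Atf3 was higher by 1.83 and Trib3 by 1.04, and Asns differed by -1.10; over all genes 2.57% were at least 2-fold higher and 0.563% lower. Ddit3 was higher by 0.87, just short of 2-fold. The step from 4 to 26 weeks also crosses the difference in Xist and Eif2s3y, whose part was not tested, and that from 26 to 39 weeks does not. From 26 to 39 weeks none of the 10 differed 2-fold, while 0.0774% of genes were that much higher and 0.134% lower; Atf3 (0.51) and Herpud1 (0.45) differed most. Atf4 read 11.35, 11.34 and 11.25 at 4, 26 and 39 weeks, and Hspa5 12.32, 12.42 and 12.45.

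By group mean or lone value, Asns was ordered tumor (8.72), LEC 4 weeks (8.32), LEC 26 weeks (7.22), LEC 39 weeks (6.86), nontumor (6.82) and LEA (6.71). The last 4 lie within the nontumor range or 0.034 above it (26 weeks), while 4 weeks lies inside no other group and below the tumor range of 8.48 to 9.19. Trib3 was ordered 26 weeks (9.76), 39 weeks (9.63), nontumor (9.07), 4 weeks (8.72), LEA (8.52) and tumor (7.60). The first 2 of these and 4 weeks lie inside the nontumor range of 8.68 to 9.84, and the tumor range of 7.34 to 7.96 lies below all others. Dnajc3 was ordered 4 weeks (11.44), LEA (11.42), 26 weeks (11.27), nontumor (11.25), 39 weeks (11.08) and tumor (9.64), of which all but tumor lie within 0.37 of each other on every array.

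Genes whose centred profiles over the 12 arrays lay nearest to 5 of the 10 were sought among 6503 genes with a range of at least 1 log2 unit, by root mean square (RMS) difference in log2 units. Trib3 was nearest to Hibch (0.18), a mitochondrial enzyme of valine breakdown, Crem (0.20), a cyclic AMP responsive transcription factor, and Pold4 (0.26), a DNA polymerase delta subunit. Asns was nearest to Fcmr (0.34), the IgM Fc receptor, Grb10 (0.34), an insulin receptor adaptor, and Sparc (0.40), a matrix protein. Atf3, with a range of 3.41, was nearest to Pcolce (0.53), Casp12 (0.53) and RT1-DMa (0.56), and Ddit3 to Pdrg1 (0.22), Zdhhc23 (0.23) and Susd2 (0.24). Hspa5, with a range of 0.52, was nearest to Pnpla8 (0.18), Gzmm (0.19) and Zbtb48 (0.19) among these. Genes as flat as Hspa5 were left out of that search by the range limit, and Atf4 and Hsp90b1 lay nearer to it (0.15 each). Among the 10 genes themselves, the nearest pair was Hspa5 and Atf4 (0.15) and the farthest was Asns and Dnajc3 (1.63), followed by Asns and Trib3 (1.62). Both genes of the nearest pair varied little (ranges of 0.52 and 0.55), and profiles that vary little lie near each other whatever their shape. The arrays share the contrast of tumor with the rest, which shapes such distances.

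The rest of the pathway was described by 8 lists with 132 measured genes, of which 41 (31.1%) were called higher and 45 (34.1%) lower in tumor (median -0.07), beside 38.8% and 29.2% of all genes (median 0.07). Normalizing by quantiles again or subtracting array medians moved the median of all genes by -0.10 in either case, to -0.04, and turned the calls over all genes from 5511 higher and 4147 lower to 4379 and 4825 with quantiles and to 4843 and 5188 with medians. The changed splits given for the lists stand beside this shift of all genes. Counts in these lists are descriptions and were not tested as lists. Of 12 stress sensors and their activating proteases, 5 were called higher and 2 lower (median 0.10). Eif2ak3, which encodes PERK, rose by 0.73 ± 0.11 (SE; limma adjusted p = 3.99e-04), Mbtps1, the protease that cuts ATF6, by 0.83 ± 0.11, and the RNA-sensing kinase Eif2ak2 by 0.69 ± 0.14. Creb3l3, a liver membrane factor released like ATF6, fell by 2.61 ± 0.22 (limma adjusted p = 2.14e-05). With repeated quantile normalization this split became 4 higher and 6 lower.

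Of 24 ER folding genes 4 were called higher and 12 lower (median -0.22), or 2 and 16 with repeated quantile normalization and 3 and 16 with array medians subtracted. The falls were led by Ero1b, which supplies oxidizing power for disulfide bonds (-1.96 ± 0.22, SE), Hyou1, an ER Hsp70 relative (-0.80 ± 0.07), the secreted stress factor Manf (-0.78 ± 0.10) and Sil1, a nucleotide exchange factor for BiP (-0.72 ± 0.10), with limma adjusted p at most 2.6e-04. The 4 called higher were Dnajc10 (0.66 ± 0.10, SE), Txndc5 (0.65 ± 0.12), Ero1a (0.52 ± 0.10) and Erp29 (0.22 ± 0.08), so that Ero1a and Ero1b went opposite ways. Of 17 genes of ER-associated degradation 2 were called higher and 8 lower (median -0.21), or 0 and 13 with repeated quantile normalization and 1 and 11 with array medians subtracted. Derl2, a channel component (-1.54 ± 0.18, SE), Sel1l, the scaffold of the HRD1 ligase (-0.83 ± 0.12), and Edem1, a mannosidase-like factor (-0.67 ± 0.11), were lower with limma adjusted p at most 6.71e-04. Os9, a lectin of the same complex, was lower by its brightest probe set (-0.54 ± 0.08, SE; limma adjusted p = 3.34e-04) but not by the mean of its probe sets (-0.07). Of 22 genes of ER import and N-glycosylation 5 were called higher and 7 lower (median -0.13), or 5 and 12 under either other scaling. Spcs1 (0.85 ± 0.09, SE) and Sec11a (0.49 ± 0.07), both signal peptidase subunits, were higher and Ostc, a subunit of an oligosaccharyl transferase (-0.53 ± 0.12), was lower, with limma adjusted p at most 0.00433. Stt3b, a catalytic subunit of such a transferase, lost its rise (0.53 ± 0.13, SE) when probe sets were averaged (0.27). The hepatocyte markers were also lower in tumor, as given above, and their part in these falls was not tested.

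Of 17 further genes of the integrated stress response, 7 were called higher and 3 lower (median 0.25), or 5 and 5 with repeated quantile normalization and 6 and 5 with array medians subtracted. Ddit4, an inhibitor of mTORC1 (2.52 ± 0.21, SE), Bcl2l11, which encodes the death factor BIM (2.23 ± 0.16), and the stress cofactor Nupr1 (1.64 ± 0.41) were higher, with limma adjusted p at most 0.0076. Gdf15, a secreted stress cytokine, was lower (-2.12 ± 0.57, SE; limma adjusted p = 0.0109), and was at -2.74 without tumor array 3. The ATF4 target Chac1, an enzyme that breaks down glutathione, named here after its value was seen, was also lower (-0.79 ± 0.22, SE; limma adjusted p = 0.0136). Of the other called genes of this list, Cebpb was lower (-1.32 ± 0.28, SE). Vldlr (0.92 ± 0.13, SE), Eif2s1 (0.53 ± 0.08), Bbc3 (0.37 ± 0.14) and Cebpg (0.35 ± 0.08) were higher.

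Of 12 amino acid enzymes 5 were called higher and 4 lower (median 0.03). Phgdh, the first enzyme of serine synthesis, rose by 2.09 ± 0.20 (SE; limma adjusted p = 3.93e-05), while Cbs and Cth, the enzymes that turn homocysteine into cysteine, were lower (-3.67 ± 0.34 and -3.54 ± 0.89, SE, limma adjusted p = 3.56e-05 and 0.00771), as was mitochondrial Shmt2 (-1.81 ± 0.17). The value of Cth was -4.41 without tumor array 3 and -2.72 without tumor array 4. Of the other called enzymes, Psat1 (1.34 ± 0.27, SE), Aldh18a1 (1.33 ± 0.14), Mthfd2 (0.80 ± 0.10) and Glul (0.72 ± 0.19) were higher and Got1 (-1.57 ± 0.22) was lower. Of 11 amino acid transporters 5 were called higher and 5 lower (median 0.01). The neutral amino acid carriers Slc1a5 (1.16 ± 0.09, SE) and Slc1a4 (1.13 ± 0.16) were higher, and the leucine carrier Slc43a1 (-1.74 ± 0.31) and the glycine carrier Slc6a9 (-0.88 ± 0.14) were lower, with limma adjusted p at most 0.00133. Of 17 tRNA synthetases 8 were called higher and 4 lower (median 0.16), or 4 and 7 with repeated quantile normalization. Qars1 (1.02 ± 0.09, SE) and Wars1 (0.89 ± 0.07), for glutamine and tryptophan, were higher, and Aars1 (-1.03 ± 0.13) and Tars1 (-0.91 ± 0.12), for alanine and threonine, were lower, with limma adjusted p at most 2.1e-04.

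**Figure D5:**
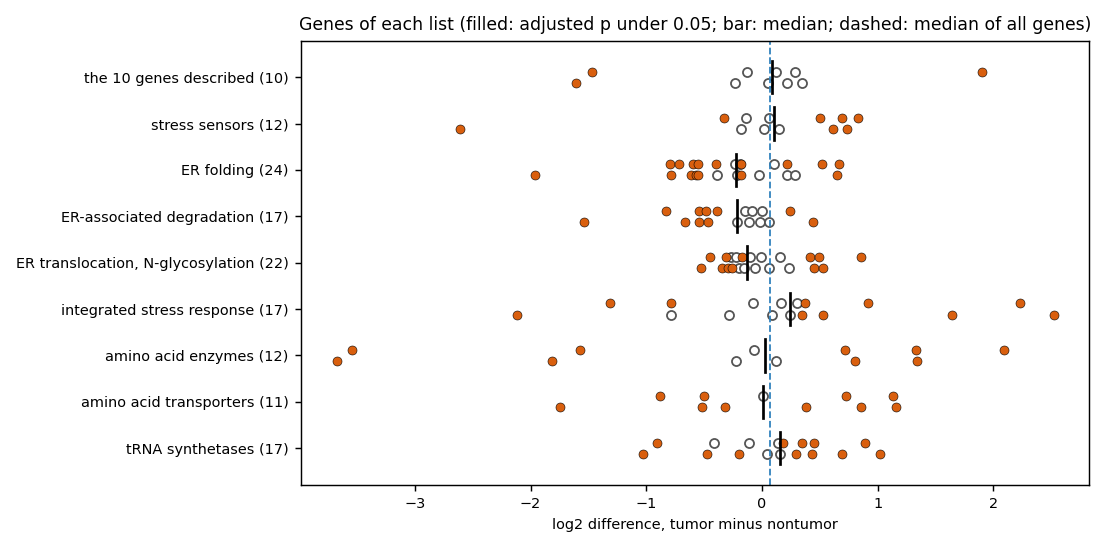
Log2 difference of tumor minus nontumor (horizontal axis) for each measured gene of the 10 described and of the 8 lists, filled where the adjusted p was under 0.05; bars are list medians and the dashed line the median of all genes (0.07). The folding (-0.22), degradation (-0.21) and import (-0.13) lists have medians below the line, and the integrated stress response (0.25) has genes far on either side of it.

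In nontumor against LEA liver, 1 of the 132 genes was called. Hyou1, whose promoter holds ERSE-II letters, read 11.48 on the LEA array, 10.21 on the 4 week array and 9.73, 9.65, 9.73 and 9.72 on the nontumor arrays. The difference was -1.77 ± 0.11 (SE; limma adjusted p = 2.02e-04), and Hspa5 and Hsp90b1 were not called in the same comparison (-0.26 ± 0.16 and 0.10 ± 0.14, SE). Of 9 pancreas acinar markers, Cpa1, a pancreatic carboxypeptidase, read 12.22 on the LEA array and 6.32 to 7.48 on the nontumor arrays. The summed level of all 9 was 12.48 on the LEA array and 10.05 to 10.18 on the nontumor arrays. Without Cpa1, the other 8 summed to 9.88 on the LEA array, inside the nontumor range of 9.79 to 10.01. Singly, 4 of the 9 lay above every nontumor array on the LEA array, 2 below and 3 inside. Of the 9 markers, 3 were at background on every array: Amy2a3 and Cela2a, counted among the 4 above, and Ctrb1, counted inside. The part of pancreas acinar tissue in the LEA values was not tested. Against LEC at 4 weeks 1 of the 132 was called, Hspa13, an ER-associated Hsp70 relative (-1.21 ± 0.17, SE; limma adjusted p = 0.0298); without nontumor array 2 or 3 or tumor array 1, 2 or 4, and in a fit of only the 2 groups, it did not pass (adjusted p from 0.0529 to 0.206). None of the 132 was called against 26 or 39 weeks by limma, where 17 (12.9%) and 19 (14.4%) had an unadjusted p under 0.05, beside 11.8% and 10.4% of all genes.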

How the data were processed

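Biotin-labelled RNA from 3 µg of total liver RNA was hybridized to 12 arrays, per the labels' protocols. The authors deposited log2 expression values which the submitters' processing notes credit to RMA and R 2.6.1; whether all arrays were normalized together is not given in the sources used here, and array medians lay between 7.39 and 7.51. Precision is limited by how many arrays there are.

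Of 31099 probe sets, 57 controls were left out. The annotation gave 20826 of the other 31042 a single gene, 436 several and 9780 none listed; 20758 were updated through Entrez identifiers. A model of 6 group means was fitted with limma 3.58.1 in R 4.3.3 (6 residual and 2.84 prior degrees of freedom) and checked on simulated data. All tests were two-sided, with Benjamini-Hochberg adjustment of the p-values across 31042 probe sets.

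The genes, the 8 pathway lists (132 of 139 entries matched) and the 10 marker lists (77 of 91) were chosen with earlier results of these data known. Named were the 10 genes, up to 4 called genes per pathway list with the largest tumor difference, up to 2 called against LEA, and the 3 nearest profiles of Hspa5, Ddit3, Atf3, Asns and Trib3; Chac1, Calr, Ankmy2, Hnrnpa3, Ppm1l, Hspa13, Xist, Eif2s3y and Cpa1 were named outside this rule, after their values were seen. Cebpb, Vldlr, Eif2s1, Bbc3 and Cebpg were also named outside this rule, to give the rest of the called genes beside Chac1. So were Jchain, Amy2a3, Cela2a, Ctrb1, Dnajc10, Txndc5, Ero1a, Erp29, Psat1, Aldh18a1, Mthfd2, Glul and Got1, after their values were seen. Figures were drawn with matplotlib 3.10.9.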

Additional observations from a re-analysis of the deposited data

Results flagged for a closer look

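Atf3 on tumor array 3 read 9.96, apart from the other 3 tumor arrays, the nearest of which read 9.20; this gap was 0.903 of the range of the 4 arrays, above Dixon's 95% critical value for 4 samples. It was the only value marked this way among 20 groups of 4 arrays (10 genes in tumor and in nontumor), and chance marks about 1 group in 20.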

How the results depend on the processing

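Asns, Trib3 and Dnajc3 kept their direction and call under all 16 alternatives, with limma adjusted p from 6.11e-05 to 6.8e-04, from 2.27e-04 to 0.00533 and from 1.55e-05 to 7.82e-04. With the title number as a replicate block, 1 gene was higher and 2 lower, as without it (Asns 1.90, limma adjusted p = 6.8e-04), and whether equal numbers mark paired specimens is not given in the sources used here; deviations of same-numbered arrays correlated at 0.054, 0.14, -0.082 and 0.14, so that not every array went with its own number. Leaving out 1 array gave 1 to 2 genes called higher in tumor and 2 lower. Quantile normalization again also called Hspa5 lower. Uncalled differences near 0 changed sign. With array weights these were Atf3 in tumor minus nontumor (-0.080), Ddit3 (0.054) and Asns (-0.047) in nontumor minus LEA, Dnajc3 against 26 weeks (0.044) and Atf4 against 39 weeks (0.014). With quantile normalization again they were Hsp90b1 in tumor (-0.038), Ddit3 (0.022) and Xbp1 (0.10) against LEA, Dnajc3 (0.062) and Xbp1 (0.042) against 26 weeks and Atf4 against 39 weeks (0.064); with array medians subtracted, Hsp90b1 in tumor (-0.053) and Atf4 against 39 weeks (0.011). Leaving out 1 array gave ranges of -0.0063 to 0.11 for Hsp90b1 in tumor; -0.098 to 0.043 for Ddit3, -0.0086 to 0.31 for Asns and -0.12 to 0.059 for Xbp1 against LEA; -0.077 to 0.041 for Dnajc3 and -0.10 to 0.070 for Xbp1 against 26 weeks; and -0.31 to 0.30 for Atf3, -0.070 to 0.030 for Atf4, -0.17 to 0.16 for Asns and -0.038 to 0.075 for Hsp90b1 against 39 weeks.

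List counts in tumor moved by over 1.5 times beyond the scalings given above as follows. Requiring a 2-fold change left 0 higher and 1 lower of the sensors (5 and 2), 0 and 1 of the folding (4 and 12) and degradation genes (2 and 8), 0 and 0 of the import genes (5 and 7), 3 higher of the integrated stress response (7) and of the enzymes (5), 2 and 1 of the transporters (5 and 5) and 1 and 1 of the tRNA synthetases (8 and 4). Sensors lower came to 1 of 2 without dim probe sets and without nontumor array 1, 3 or 4 or tumor array 1 or 2. Degradation genes higher came to 1 of 2 with probe sets averaged, with the block, and without nontumor array 1 or 4 or tumor array 1, 2 or 4. Transporters lower came to 3 of 5 without nontumor array 3 or 4 or tumor array 2 or 4, and transporters higher to 3 with quantile normalization again. Integrated stress response genes lower came to 5 of 3 with array weights or averaged probe sets, and tRNA synthetases higher to 5 of 8 with averaged probe sets. The cause of these shifts was not tested. Lone arrays, pooled RNA of unknown rat number and 6 residual degrees of freedom limit what the comparisons outside tumor and nontumor can show.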
